A study of Mus musculus with 6 samples.

Results

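The genes described here are 42 mouse genes of mitosis and cytokinesis, the steps in which a cell separates its copied chromosomes and divides. They were taken by gene symbol from the array's annotation, and all 42 of the 42 listed genes were measured among 18193 genes. Each gene was read by its brightest probe set (a set of short oligonucleotides against one transcript). No filter on low values was applied to the list. The RNA, read on 6 Affymetrix arrays, is from C57BL/6 mouse bone marrow cultures. GM-TNFa-DC are dendritic cells obtained from the progenitors with GM-CSF and TNFa, GM-DC are dendritic cells obtained from them with GM-CSF alone, and GM-MPP are multipotent progenitors grown with stem cell cytokines and GM-CSF. Each group has 2 arrays, numbered 1 and 2 in the labels, and GM-CSF is shared by all 3 groups. The labels name no genotype, age, culture time or TNFa dose, and do not say whether 2 arrays of a group, or arrays of the same number, came from the same animal or culture. All p-values therefore cover only how far these arrays spread, and that spread may be technical.

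Entry into mitosis is driven by the kinase Cdk1 with cyclins A and B, and the Polo and Aurora kinases then build the spindle. Kinetochores, the protein plates on the centromeres, attach chromosomes to spindle fibres, and a checkpoint holds the cell back until all are attached. Cdc20 then turns on a ubiquitin ligase, the anaphase-promoting complex, which ends mitosis, and a ring of actin and its regulators cuts the cell apart. Most of these genes are transcribed only late in the cell cycle, so their RNA is widely read as a sign of dividing cells. Blood progenitors in culture divide, and division slows as dendritic cells mature. In bulk RNA, fewer dividing cells and less of each transcript per cell cannot be told apart.

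Levels are log2 values, so that a difference of 1 is 2-fold, and array medians lay between 4.67 and 4.77. A value near the median is partly background, which compresses differences. The dendritic cell arrays parted by sample number. Over all probe sets, arrays of the same number correlated at 0.9876 (number 1) and 0.9902 (number 2) between GM-TNFa-DC and GM-DC, while the 2 arrays of a group correlated at 0.9607 in GM-TNFa-DC, 0.9696 in GM-DC and 0.9876 in GM-MPP. Poly-A control transcripts, added before labelling, had a brighter number-1 array in every group, for all 24 of 24 probe sets. The median ratio of number 1 to number 2 was 2.58 in GM-TNFa-DC, 2.13 in GM-DC and 2.43 in GM-MPP. Their part in the results was not tested. The labels were checked against defining markers. Of 8 dendritic cell markers, 7 were higher in GM-TNFa-DC and 7 in GM-DC than in GM-MPP, and of 6 progenitor markers 5 were lower in each (limma, adjusted p under 0.05). Of all genes, 2.77% were called higher and 4.26% lower in GM-TNFa-DC, and 1.87% and 2.63% in GM-DC. Zbtb46, a transcription factor of dendritic cells, and Kit, a growth factor receptor of progenitors, did not pass. Flt3, found on both kinds of cell, was counted with the progenitor markers only. It was lower than in GM-MPP, with log2 differences of -1.75 in GM-TNFa-DC and -1.98 in GM-DC. As a dendritic cell marker it would thus go the other way.

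The comparison of dendritic cells with the progenitors they came from asks how far the mitotic programme differs between them. The members stood lower in dendritic cells, with a median log2 difference of -2.23 in GM-TNFa-DC and -1.87 in GM-DC, while the medians over all genes were 0.05 and 0.02. Both GM-TNFa-DC arrays lay below both GM-MPP arrays for 40 of 42 members, against 26.1% of all genes, and both GM-DC arrays did so for 39 of 42, against 27.0% of all genes. Both comparisons share the GM-MPP arrays. Bub1 and Kif15 were the exceptions in GM-TNFa-DC, and Bub1, Kif15 and Spc25 in GM-DC. Few of these differences passed in the model of group means, whose error holds the gap between both arrays of a group. Kif23, a kinesin of the midbody between daughter cells, was the only member to fall past the threshold in GM-TNFa-DC (limma, Benjamini-Hochberg adjusted p under 0.05), against 4.26% of all genes called lower, and 0 members rose, against 2.77%. Neither count is above its share over all genes. In GM-DC 0 of 42 members passed, against 2.63% of all genes called lower and 1.87% called higher, with a lowest adjusted p of 0.0752, also for Kif23. At an unadjusted p under 0.05, 35 of 42 members were lower in GM-TNFa-DC and 24 in GM-DC, where 4573 and 3921 of all 18193 genes passed that threshold in either direction. Leaving out GM-TNFa-DC 1, GM-MPP 1 or GM-MPP 2 ended the call for Kif23, and 0 members then passed. With separate number terms for dendritic cells and GM-MPP, a fit chosen after seeing the data, 41 of 42 members were called lower in each comparison, against 16.2% of all genes in GM-TNFa-DC and 14.7% in GM-DC.

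Kif23 was at 6.64 and 7.57 on the GM-TNFa-DC arrays 1 and 2, at 7.60 and 8.32 on the GM-DC arrays and at 9.81 and 9.60 on the GM-MPP arrays. All 4 dendritic cell arrays lay more than 1 unit below the lower progenitor array. Kif23 fell by 2.60 ± 0.40 (moderated SE) in GM-TNFa-DC, a 6.08-fold decrease (limma, adjusted p = 0.0256), and its log2 difference in GM-DC was -1.75 ± 0.40 (adjusted p = 0.0752). Plk1, the Polo kinase, was at 6.39 and 7.48 in GM-TNFa-DC, 6.41 and 7.79 in GM-DC, and 9.87 and 9.29 in GM-MPP. All 4 of its dendritic cell arrays lay below both GM-MPP arrays, while GM-TNFa-DC and GM-DC overlapped. Its differences of -2.64 ± 0.58 in GM-TNFa-DC (limma, adjusted p = 0.0576) and -2.48 ± 0.58 in GM-DC (adjusted p = 0.0787) did not pass. Mki67, which encodes the proliferation marker Ki-67, averaged 9.42 ± 0.98 in GM-TNFa-DC, 9.69 ± 0.87 in GM-DC and 11.62 ± 0.40 in GM-MPP (SD, n = 2 each). Its log2 differences were -2.20 ± 0.60 in GM-TNFa-DC (limma, adjusted p = 0.0940) and -1.93 ± 0.60 in GM-DC (adjusted p = 0.145).

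The size of the gap to the progenitors depended on the sample number. On number-1 arrays, 41 of 42 members were at least 2-fold lower in GM-TNFa-DC than in GM-MPP, against 10.6% of all genes, and 41 were in GM-DC, against 8.86% of all genes. On number-2 arrays 32 members were at least 2-fold lower in GM-TNFa-DC, against 7.88% of all genes, but only 10 in GM-DC, against 6.50% of all genes. The median log2 difference of the members was -3.23 on number 1 and -1.27 on number 2 for GM-TNFa-DC, and -2.98 and -0.67 for GM-DC. Single members spanned -3.99 to -0.10 on number 1 and -1.51 to 0.35 on number 2 in GM-DC minus GM-MPP.

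**Figure D1:**
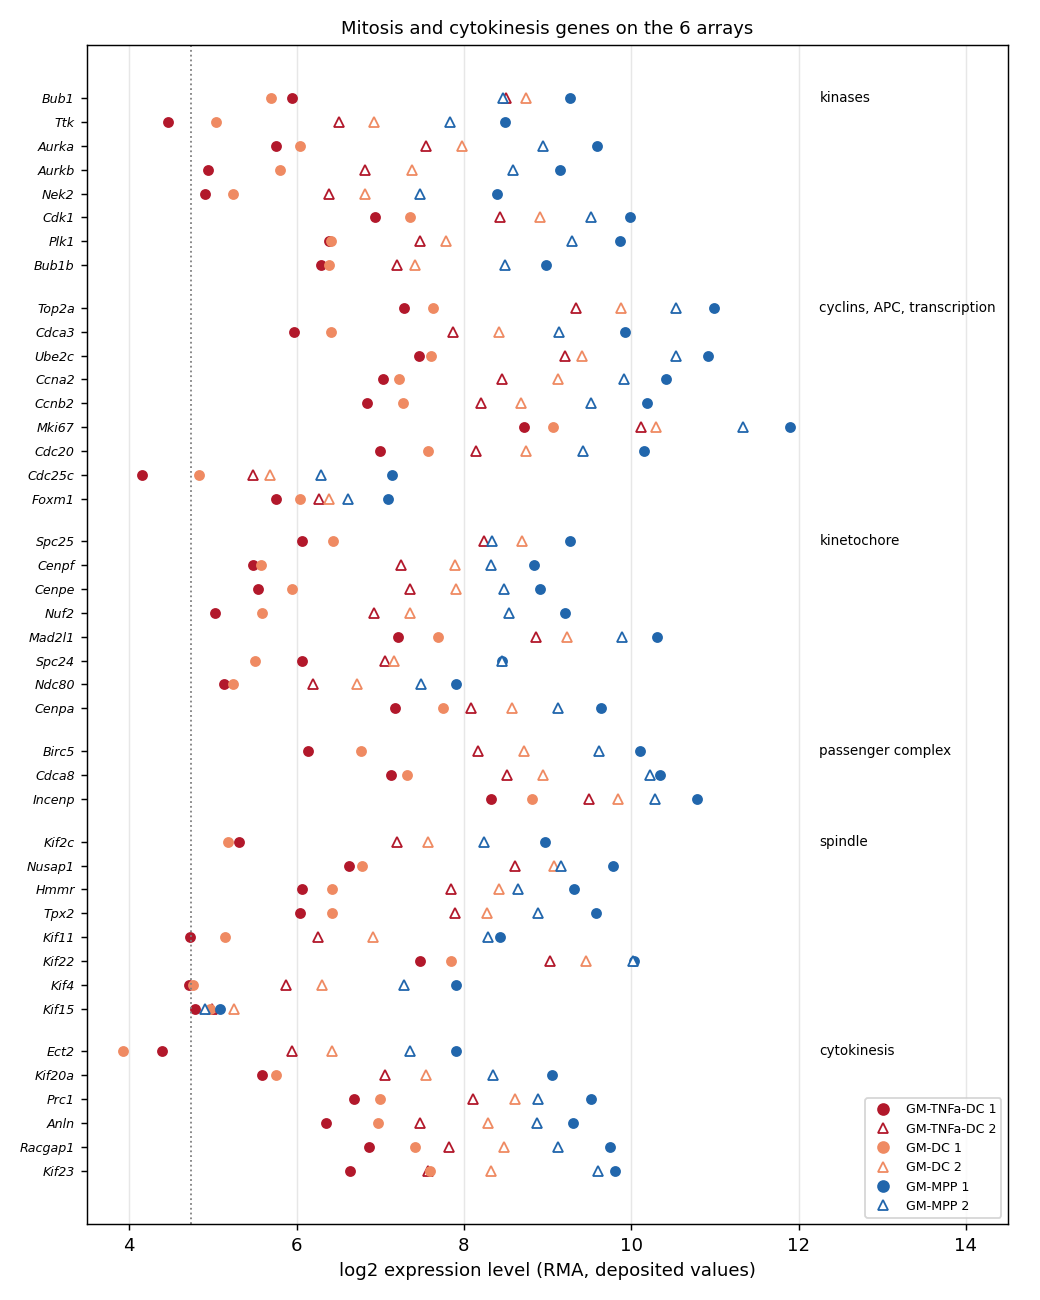
Log2 expression level (horizontal axis) of each of the 42 genes, grouped by role, on each of the 6 arrays; filled circles are number-1 and open triangles number-2 arrays, and the dotted line marks the mean of the array medians, which lie between 4.67 and 4.77. In most rows the number-1 dendritic cell arrays lie at the left, the number-2 dendritic cell arrays in the middle and the GM-MPP arrays at the right, while Kif15 shows no such spread.

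The dendritic cell arrays of different numbers also differed in these genes. In a fit with a number term shared by GM-TNFa-DC and GM-DC and another for GM-MPP, 40 of 42 members were lower on number 1 than on number 2 in dendritic cells (limma, adjusted p under 0.05), against 6.57% of all genes called lower, and 0 were higher, against 5.62%. The median log2 difference was -1.59 over the members and -0.03 over all genes. Both number-1 dendritic cell arrays lay below both number-2 arrays for 41 of 42 members, against 29.8% of all genes, the exception being Kif23. Within GM-TNFa-DC 36 members were at least 2-fold lower on number 1, against 4.71% of all genes, and within GM-DC 37 were, against 4.05%. The fit has 1 residual degree of freedom, from how well the number difference repeats between GM-TNFa-DC and GM-DC. If same-numbered arrays share a culture, it does not hold the spread between cultures. With 1 number term shared by all 3 groups, 0 of 42 members passed.

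In the progenitors the direction was the other one. Of 42 members, 41 were higher on GM-MPP 1 than on GM-MPP 2, against 49.7% of all genes, with a median log2 difference of 0.56. The exception was Spc24, at -0.01. None of these differences passed, against 0.0110% of all genes called lower and 0.00550% called higher (limma, lowest adjusted p = 0.307, with 23 members and 1797 of all 18193 genes at an unadjusted p under 0.05), and the 1 array of each number was assumed to vary like the dendritic cell arrays. The number difference in dendritic cells was lower than that in GM-MPP for 33 of 42 members (limma, adjusted p under 0.05), against 1.61% of all genes, and higher for 0, against 0.923%. The median was -2.11. The arrays took nearly the same order in most members. Both number-1 dendritic cell arrays lay below both number-2 dendritic cell arrays, and those below both GM-MPP arrays, in 38 of 42 members, against 6.83% of all genes. The full order GM-TNFa-DC 1, GM-DC 1, GM-TNFa-DC 2, GM-DC 2, GM-MPP 2, GM-MPP 1, low to high, was seen in 35 of 42, against 2.37% of all genes. That order was taken from the members' own values, and the coarser one is part of it. Both shares are therefore a description and no test.

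**Figure D2:**
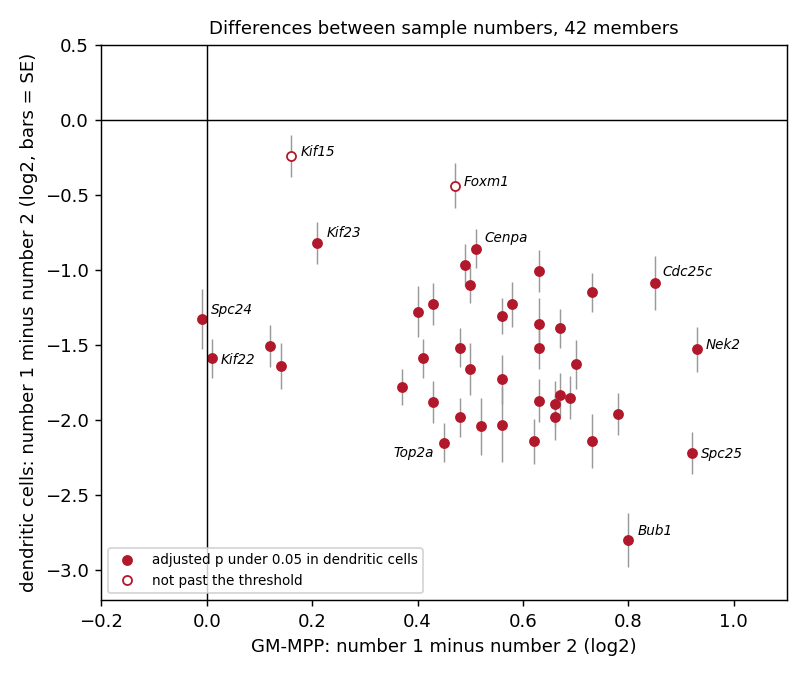
Log2 difference between number-1 and number-2 arrays in dendritic cells (vertical axis, GM-TNFa-DC and GM-DC together, bars are the moderated SE) against the same difference in GM-MPP (horizontal axis), 1 point for each of the 42 genes. All points lie below 0 on the vertical axis, 40 of them past the threshold (filled), and 41 lie to the right of 0 on the horizontal axis.

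Among the mitotic kinases, all 8 were lower on number-1 dendritic cell arrays, by log2 differences between -2.80 and -0.97. Bub1, a kinase of the spindle checkpoint that sits on kinetochores, was at 5.95 on GM-TNFa-DC 1 and 8.50 on GM-TNFa-DC 2, at 5.69 and 8.74 on the GM-DC arrays, and at 9.27 and 8.47 on the GM-MPP arrays. Its number-2 dendritic cell arrays were thus at the level of GM-MPP 2, and its number-1 arrays far below every other. The difference of -2.80 ± 0.18 was a 6.98-fold decrease (limma, adjusted p = 0.00283) and was the largest among the members. Ttk, another checkpoint kinase, was at 4.46 and 6.51 in GM-TNFa-DC and 5.04 and 6.93 in GM-DC. Its difference was -1.98 ± 0.15, and GM-TNFa-DC 1 lay below the array median. Cdk1 fell by 1.52 ± 0.13 on number 1 (6.94 and 7.36 on number 1, against 8.43 and 8.91 on number 2, in GM-TNFa-DC and GM-DC). The Aurora kinases Aurka, of the spindle poles, and Aurkb, of the centromeres and the midzone, had differences of -1.87 ± 0.14 and -1.73 ± 0.16. Nek2, a kinase that parts the centrosomes, had one of -1.53 ± 0.15 and Plk1 of -1.23 ± 0.15. The smallest difference was that of Bub1b, which encodes the checkpoint protein BubR1 (-0.97 ± 0.14, limma, adjusted p = 0.0181).

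All 9 genes of cyclins, protein destruction, chromosome structure and transcription were lower on number-1 dendritic cell arrays, 8 of them past the threshold. Top2a, the topoisomerase that untangles sister chromosomes, was at 7.28 and 9.34 in GM-TNFa-DC, 7.63 and 9.88 in GM-DC, and 10.99 and 10.54 in GM-MPP. The number-1 arrays were 4.45-fold lower (log2 difference -2.15 ± 0.13, limma, adjusted p = 0.00273). Both number-2 arrays lay between them and the progenitors. The cyclins Ccna2 and Ccnb2 had differences of -1.66 ± 0.17 and -1.39 ± 0.13. Cdca3, a trigger of mitotic entry, was at 5.97 and 7.87 in GM-TNFa-DC, 6.41 and 8.42 in GM-DC, and 9.92 and 9.14 in GM-MPP (-1.96 ± 0.14). Ube2c, which supplies ubiquitin to the anaphase-promoting complex, had a difference of -1.78 ± 0.12, and Cdc20, the activator of that complex, one of -1.15 ± 0.13. Mki67 fell by 1.31 ± 0.12 (2.48-fold). Cdc25c, the phosphatase that activates Cdk1, fell by 1.09 ± 0.18, with GM-TNFa-DC 1 at 4.15, below the array median. Foxm1, a transcription factor of G2 and mitotic genes, was among the 2 members that did not pass: it was at 5.75 and 6.27 in GM-TNFa-DC, 6.04 and 6.39 in GM-DC, and 7.09 and 6.62 in GM-MPP, with a number difference of -0.44 ± 0.15 (limma, adjusted p = 0.148).

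All 8 kinetochore and centromere genes were lower on number-1 dendritic cell arrays. Spc25, a subunit of the Ndc80 complex that grips spindle fibres, was at 6.06 and 8.24 in GM-TNFa-DC, 6.44 and 8.69 in GM-DC, and 9.27 and 8.34 in GM-MPP. As with Bub1, its number-2 dendritic cell arrays were near GM-MPP 2. It fell by 2.22 ± 0.14 on number 1 (limma, adjusted p = 0.00277), and its partners Nuf2, Ndc80 and Spc24 had differences of -1.83 ± 0.14, -1.28 ± 0.17 and -1.33 ± 0.20. Cenpf and Cenpe, large proteins of the outer kinetochore, had differences of -2.04 ± 0.19 and -1.88 ± 0.14, and Mad2l1, the checkpoint protein Mad2, one of -1.59 ± 0.13. Cenpa, the histone variant that marks centromeres, had the smallest difference of these 8 (-0.86 ± 0.13, limma, adjusted p = 0.0210). The chromosomal passenger complex, which corrects wrong attachments, has Aurkb as its kinase. Its other members Birc5 (survivin), Cdca8 (borealin) and Incenp had differences of -1.98 ± 0.13, -1.51 ± 0.14 and -1.10 ± 0.12.

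All 8 genes of spindle motors and spindle assembly were lower on number-1 dendritic cell arrays, 7 of them past the threshold. Nusap1, which bundles spindle fibres, was at 6.63 and 8.61 in GM-TNFa-DC, 6.78 and 9.08 in GM-DC, and 9.78 and 9.16 in GM-MPP, a number difference of -2.14 ± 0.15 (limma, adjusted p = 0.00338). Kif2c, a kinesin that takes spindle fibres apart at centromeres, differed as much (-2.14 ± 0.18), followed by Hmmr, a spindle assembly protein (-1.89 ± 0.15) and Tpx2, an activator of Aurora A (-1.85 ± 0.14). Kif11, the kinesin that pushes the spindle poles apart, had a difference of -1.64 ± 0.15, and Kif22 and Kif4, kinesins of chromosome arms, of -1.59 ± 0.13 and -1.36 ± 0.17. Kif15, another spindle kinesin, was the other member that did not pass. It was at 4.79 and 4.99 in GM-TNFa-DC, 4.97 and 5.25 in GM-DC, and 5.08 and 4.91 in GM-MPP. Its 6 arrays overlapped across groups and lay close to the array medians, and it has a single probe set. All 6 cytokinesis genes were lower on number 1. Ect2, which activates the small GTPase of the contractile ring, was at 4.39 and 5.95 in GM-TNFa-DC and 3.93 and 6.42 in GM-DC, with both number-1 arrays below the array median. Its difference was -2.03 ± 0.25, followed by Kif20a, a kinesin of the central spindle (-1.63 ± 0.16), Prc1, which bundles its fibres (-1.52 ± 0.14), Anln, the ring scaffold anillin (-1.23 ± 0.14), Racgap1, the partner of Kif23 (-1.01 ± 0.14), and Kif23 itself (-0.82 ± 0.14).

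Since the members moved together, their promoters are shown for the 5 with the largest number difference among those whose window held a searched motif. RefSeq (GRCm38.p6) gave windows from 250 bases before to 50 after the annotated start for 34 of the 42 members. Genes of G2 and mitosis are known for 2 promoter elements: the CHR, searched here only as the letters TTTGAA, and the CCAAT box. Searched on both strands, TTTGAA stood in 27 of 34 members (79.4%) and in 15.5% of 14418 other measured genes with a window, and CCAAT in 26 of 34 (76.5%) and 41.9%. Both motifs stood in 23 of 34 members (67.6%) and in 6.06% of the other genes. TTCCCGC, as in sites of the E2F factors of replication genes, stood in 0 of 34 members and in 7.97% of the other genes. None of the 3 motifs contains another, and these shares are a description with no test.

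The printed parts run from 150 bases before to 30 after the start, 5′ to 3′ on the gene's strand, which is the minus strand for all 5, with both motifs and their reverse complements TTCAAA and ATTGG in capitals. They lie at chr2:127831830-127832009 (Bub1), chr2:69206184-69206363 (Spc25), chr11:99024160-99024339 (Top2a), chr4:117178743-117178922 (Kif2c) and chr1:189688057-189688236 (Cenpf). The Kif2c start lies 3852 bases inside the annotated gene.
Bub1: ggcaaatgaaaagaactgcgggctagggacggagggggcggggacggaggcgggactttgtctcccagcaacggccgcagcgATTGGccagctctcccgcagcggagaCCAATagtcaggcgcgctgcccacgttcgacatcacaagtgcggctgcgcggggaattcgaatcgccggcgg
Spc25: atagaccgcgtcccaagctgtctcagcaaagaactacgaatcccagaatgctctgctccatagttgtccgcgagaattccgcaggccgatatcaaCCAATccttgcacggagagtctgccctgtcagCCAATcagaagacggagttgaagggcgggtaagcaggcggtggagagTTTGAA
Top2a: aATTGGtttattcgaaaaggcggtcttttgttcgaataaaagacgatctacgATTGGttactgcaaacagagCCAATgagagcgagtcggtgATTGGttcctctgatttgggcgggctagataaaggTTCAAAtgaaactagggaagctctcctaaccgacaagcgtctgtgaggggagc
Kif2c: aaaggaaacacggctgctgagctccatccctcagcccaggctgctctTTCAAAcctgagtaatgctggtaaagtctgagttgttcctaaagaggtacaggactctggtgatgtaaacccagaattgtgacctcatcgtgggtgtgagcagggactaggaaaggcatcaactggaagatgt
Cenpf: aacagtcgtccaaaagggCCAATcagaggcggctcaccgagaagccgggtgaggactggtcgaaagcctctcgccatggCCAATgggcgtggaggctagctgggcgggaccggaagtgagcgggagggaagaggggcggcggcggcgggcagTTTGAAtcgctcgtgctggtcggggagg
Spc25, Top2a and Cenpf held both motifs in the printed part, Bub1 only CCAAT boxes, on both strands, and Kif2c only TTTGAA, on the other strand. Counting the start as base 1, TTTGAA began at base 3 in Cenpf and at base 25 in Spc25, and in Top2a its reverse complement began 23 bases before the start. Bub1, the member with the largest number difference, had no TTTGAA in its whole window, and Kif2c no CCAAT. Only these exact letters were searched, so a window without TTTGAA may still hold another form of the CHR. The printed parts of Bub1 and Top2a hold the near match TTCGAA, which was neither counted nor capitalised.

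Both dendritic cell groups were compared with each other to see what TNFa changed. No member and no other gene passed (limma, 0 of 18193 called in either direction, 0 of 42 members and 410 of all genes at an unadjusted p under 0.05). The differences were small and mostly of one sign. GM-TNFa-DC was lower than GM-DC of the same number on both numbers for 38 of 42 members, against 26.3% of all genes, and higher on both for 0. The median log2 difference was -0.41, with -0.35 on number 1 and -0.46 on number 2, and 0.01 over all genes. The 2 GM-TNFa-DC arrays lay below both GM-DC arrays for 1 member, Kif23, against 10.6% of all genes. On number 2, all 42 members were lower in GM-TNFa-DC, between -0.81 and -0.10. On number 1, 38 were lower, and the span was -0.97 to 0.55. No member was 2-fold lower on either number. Kif23 had the largest mean difference (-0.86, with -0.97 on number 1 and -0.75 on number 2), followed by Anln (-0.71, with -0.62 and -0.81), Aurkb (-0.71, with -0.87 and -0.56) and Racgap1 (-0.60, with -0.55 and -0.65). Spc24, Ect2, Bub1 and Kif2c were higher in GM-TNFa-DC on number 1, by 0.55, 0.46, 0.26 and 0.13, and lower on number 2. The sign of a mean difference depended on which arrays were set against each other. Without GM-DC 2 the members' median was 0.42 and without GM-TNFa-DC 1 it was 0.38, while it was -1.22 without GM-DC 1 and -1.15 without GM-TNFa-DC 2.

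**Figure D3:**
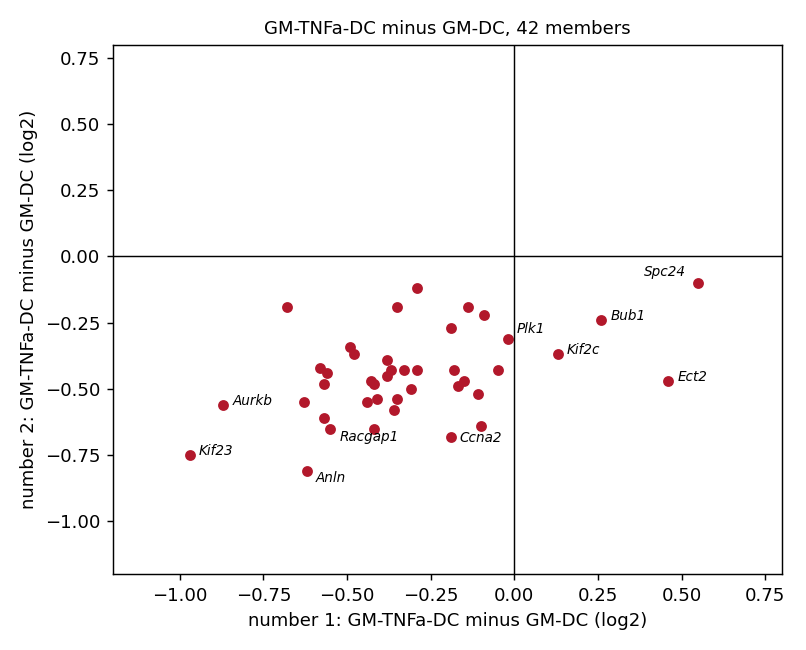
Log2 difference GM-TNFa-DC minus GM-DC on number-1 arrays (horizontal axis) and on number-2 arrays (vertical axis) for each of the 42 genes, 1 array against 1 array. In 38 genes both differences are below 0, Kif23 has the lowest value on number 1, and Spc24, Ect2, Bub1 and Kif2c lie right of 0 on the horizontal axis.

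Other genes of division gave a similar picture by sample number. Of 72 measured mitotic genes outside the 42, 44 were lower and 0 higher on number-1 dendritic cell arrays (limma, adjusted p under 0.05). Over all genes, 6.57% were called lower and 5.62% higher. The median log2 difference of the 72 was -0.94. Pbk, a mitotic kinase, was at 5.06 and 8.20 in GM-TNFa-DC, 5.36 and 8.59 in GM-DC, and 10.28 and 9.90 in GM-MPP. Its number difference was -3.19 (limma, adjusted p = 0.00172), and that of Zwilch, a checkpoint protein, -2.85. Compared with GM-MPP, 6 of the 72 fell past the threshold in GM-TNFa-DC, against 4.26% of all genes, and 1 in GM-DC, against 2.63%. The count in GM-DC is thus not above that share. The gene lower in both was Cks2, which binds Cdk1 (-2.61 in GM-TNFa-DC and -2.38 in GM-DC), named after its values were seen. Of 37 measured genes of replication and the G1/S step, 29 were lower and 0 higher on number-1 dendritic cell arrays, with a median of -1.05. Rrm2, a subunit of the enzyme that makes deoxynucleotides, was at 6.87 and 9.68 in GM-TNFa-DC, 7.28 and 10.13 in GM-DC, and 11.11 and 10.90 in GM-MPP. Compared with GM-MPP, 11 of the 37 fell past the threshold in GM-TNFa-DC and 5 in GM-DC, against 4.26% and 2.63% of all genes. The 10 genes outside the list whose levels over the 6 arrays correlated best with the members' mean (each r at least 0.9977) were Ckap2, Gmnn, 2810408I11Rik, Kif20b, Dlgap5, Fancd2, Mcm10, Rrm1, Cenpi and Stil. Of these 10, 7 are on the mitotic or replication lists. These correlations rest on 3 groups and 2 sample numbers and are a description.

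Regulators of entry into the cycle were measured alongside. Of 11 G1 regulators, Mybl2, which encodes the late G1 and G2 factor B-Myb, and E2f3 were lower on number-1 dendritic cell arrays, by log2 differences of -0.85 and -0.93. They were the 2 of 11 called lower (limma, adjusted p under 0.05), against 6.57% of all genes. Compared with GM-MPP, 4 of the 11 were called lower in GM-TNFa-DC, against 4.26% of all genes, and 2 in GM-DC, against 2.63%. None of the 11 was called higher, against 2.77% and 1.87%. Ccnd1, which did not pass, had log2 differences of -0.10 in GM-TNFa-DC and 1.14 in GM-DC. Mybl2 fell in both dendritic cell groups, with log2 differences of -3.56 in GM-TNFa-DC (limma, adjusted p = 0.0146) and -3.08 in GM-DC (adjusted p = 0.0245). Myc, a growth factor-driven transcription factor, fell as well, with -2.99 (adjusted p = 0.0105) and -2.22 (adjusted p = 0.0247). Mybl2 was at 3.78 and 4.70 in GM-TNFa-DC, 4.34 and 5.11 in GM-DC, and 8.09 and 7.51 in GM-MPP, so that it lay near the array median on all 4 dendritic cell arrays. Of 20 brakes of the cycle, 5 were called higher in GM-TNFa-DC than in GM-MPP, against 2.77% of all genes. In GM-DC 2 were, against 1.87%. None was called lower, against 4.26% and 2.63%. The medians of the 20 were 0.15 in GM-TNFa-DC and 0.29 in GM-DC, and 9 and 7 of them had differences below 0. Among these, the Cdk inhibitor genes Cdkn2c (-1.11 and -1.37) and Cdkn2d (-1.58 and -1.39) did not pass. Cdkn1a, which encodes the Cdk inhibitor p21, was at 12.24 and 11.29 in GM-TNFa-DC, 11.38 and 11.09 in GM-DC, and 8.98 and 8.96 in GM-MPP. It rose by 2.79 (limma, adjusted p = 0.0151) and 2.26 (adjusted p = 0.0288), and Cdkn2b, which encodes p15, rose by 2.81 and 1.93. By sample number, Cdkn1c (p57) was higher on number-1 dendritic cell arrays by 1.95, while Cdkn2d (p19) and Foxo3, named after its values were seen, were lower, by log2 differences of -2.06 and -0.69. These were the 1 of 20 called higher, against 5.62% of all genes, and the 2 of 20 called lower, against 6.57%.

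**Figure D4:**
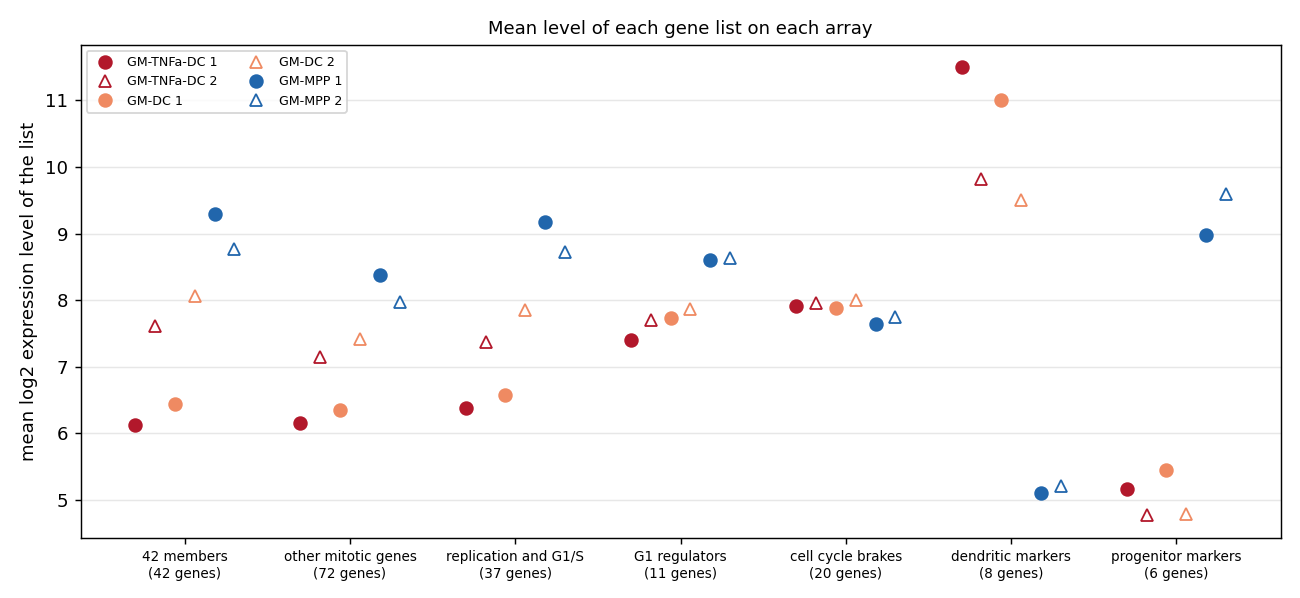
Mean log2 expression level (vertical axis) of 7 gene lists on each array, with circles for number 1 and triangles for number 2; levels compare arrays within a list, not lists with each other. The members, the other mitotic genes and the replication genes share 1 order of the groups and numbers, while dendritic cell markers lie highest on the number-1 dendritic cell arrays.

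Markers of cell types also differed between numbers. Over all genes, 5.62% were called higher and 6.57% lower on number-1 dendritic cell arrays. All 8 dendritic cell markers were higher on number-1 dendritic cell arrays (limma, adjusted p under 0.05), among them H2-Ab1, an MHC class II chain (log2 difference 2.10), Cd83 (2.07) and Cd74 (1.93). Their mean log2 level was 11.50 and 9.82 on GM-TNFa-DC 1 and 2, 11.00 and 9.50 on the GM-DC arrays, and 5.10 and 5.21 on the GM-MPP arrays. Of 6 progenitor markers, Kit and Mpo were higher and Gfi1 lower on number-1 dendritic cell arrays. Flt3, found on dendritic cells too, had a number difference of 0.01, unlike the 8 dendritic cell markers. Kit averaged 8.83 on number-1 and 5.54 on number-2 dendritic cell arrays, a number difference of 3.29, and was at 7.09 and 7.22 on the GM-MPP arrays. The mean level of the 6 spanned 4.77 to 5.17 in GM-TNFa-DC, 4.79 to 5.45 in GM-DC and 8.98 to 9.60 in GM-MPP. Of 11 macrophage markers, 2 were higher and 4 lower on number-1 dendritic cell arrays, with Cd14 at a difference of -4.85 and Mrc1 at 3.43, and the list's mean spanned 8.05 to 8.74 in GM-TNFa-DC, 8.27 to 9.09 in GM-DC and 7.87 to 8.66 in GM-MPP. Of 13 neutrophil genes, with Mpo on this list too, 5 were higher and 3 lower, with Lcn2 at -4.26, and their mean spanned 7.29 to 7.44, 7.63 to 8.55 and 12.32 to 12.87 in these groups. The mast cell, erythroid and platelet, and lymphoid lists had 1 of 12 (Cpa3, higher), 1 of 8 (Pf4, lower) and 0 of 7 genes past the threshold, and means at or below 5.67, 5.85 and 4.46 on every array. These means hide bright genes. Pf4 was at 8.88 and 12.81 in GM-TNFa-DC, 6.23 and 12.79 in GM-DC, and 9.08 and 10.55 in GM-MPP, a number difference of -5.24. Cpa3 was at 7.29 and 6.42 in GM-TNFa-DC, 7.91 and 6.62 in GM-DC, and 10.04 and 9.73 in GM-MPP. No level on this scale is 0. The part of these markers in the members' differences was not tested.

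Further probe sets of the same genes did not all share the direction. Of the 42 members 28 had over 1 probe set, which made 53 further ones. Of these 53, 40 were lower on number 1 in both dendritic cell groups, and 43 had a lower mean in both groups than in GM-MPP. Among the 32 brighter than the array median, these counts were 30 and 32. Brightness here was the mean over all 6 arrays, GM-MPP included. Foxm1 had a further probe set with more of a difference than its brightest one, at 4.31 and 5.24 in GM-TNFa-DC, 4.49 and 5.35 in GM-DC, and 6.99 and 6.50 in GM-MPP. Dim values compress differences. Of the members, 5 (Ttk, Kif11, Kif4, Cdc25c and Ect2) lay below the array median on GM-TNFa-DC 1 and 1 (Ect2) on GM-DC 1, and none did on the other 4 arrays.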

How the data were processed

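The deposited table holds 1 log2 value per probe set, for 45101 probe sets on 6 arrays. RMA, which corrects background, normalizes by quantiles and summarises probes, is named per the submitters' processing notes, and Bioconductor per the labels. The log2 scale was inferred from the range of 1.888 to 14.43. The RMA version and the set of arrays normalized at once were not found in the labels or headers.

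Probe sets were named by the platform annotation, updated by Entrez identifier to RefSeq (GRCm38.p6) symbols. Of them 34945 had 1 gene symbol, which gave 18193 genes, each read by its brightest probe set. Python 3.11.15 prepared the tables.

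Tests used limma 3.58.1 (R 4.3.3; linear fits moderated by eBayes with an intensity trend), adjusted by Benjamini-Hochberg over 18193 genes at 0.05. Group contrasts used 3 group means (3 residual degrees of freedom), and number contrasts added a number term for dendritic cells and another for GM-MPP (1 residual degree of freedom). Both fits were run on simulated arrays, each with independent noise. Such arrays lack the deviations that same-numbered dendritic cell arrays share, so they cannot show how the fits behave with them. No set test was run. The members, lists and tests were chosen with earlier results of these data known. All members could be named, and of each other list the 4 with the largest difference between GM-DC and GM-MPP and the 2 with the largest number difference, beside all defining markers. Alternatives covered normalization, dim genes, probe sets, priors, arrays in the fit, a replicate block, a 2-fold minimum and leaving out arrays. Fits with separate number terms were chosen after seeing the data.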

Additional observations from a re-analysis of the deposited data

Results flagged for a closer look

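The number difference (number 1 minus number 2) differed between kinds of cell for 33 members, all lower in dendritic cells than in GM-MPP (limma, adjusted p under 0.05 for the difference of both number terms). The 5 largest values among them were those of Bub1 (-3.60 ± 0.31 SE), Spc25 (-3.14 ± 0.24), Kif2c (-2.87 ± 0.31), Nusap1 (-2.75 ± 0.26) and Cdca3 (-2.74 ± 0.24), with adjusted p between 0.0244 and 0.0287. In these 5 genes the number-1 array was the lower one in GM-TNFa-DC and in GM-DC, while GM-MPP has 1 array of each number and so no spread of its own.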

How the results depend on the processing

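Called members in GM-DC minus GM-MPP numbered 0. With the sample number as a replicate block 2 were called, beside 849 of all 18193 genes called lower. With separate number terms for dendritic cells and GM-MPP 41 were called, where 14.7% of all genes were called lower. In GM-TNFa-DC minus GM-MPP 1 member was called, Kif23, and its call depended on which arrays were kept. With only genes brighter than the median gene 2 were called, beside 895 of 9096 genes called lower. With each gene's probe sets averaged 2 were called, beside 707 of 18193 genes called lower. The replicate block called 6, beside 1210 of 18193, and separate number terms 41 (16.2% of all genes called lower). The separate terms take the number difference out of the spread, leave 1 residual degree of freedom and assume that GM-MPP varies like the dendritic cells. The labels do not say that numbers pair the samples: deviations of same-numbered arrays correlated at 0.714 between GM-TNFa-DC and GM-DC, but at 0.0689 and 0.116 between each of them and GM-MPP, so a block common to all groups is given here only. In GM-TNFa-DC minus GM-DC 0 genes were called under every alternative run. The members' median in GM-DC minus GM-MPP was -2.98 within number 1 and -0.67 within number 2. The number difference in dendritic cells kept 36 to 40 called members, beside 1042 to 1361 of all genes called lower. The exception was 1 number term for all 3 groups, which called 0 and gave a median of -0.93. That term averages over GM-MPP, whose difference has the other sign. With a separate term for GM-MPP, the median of the number difference in dendritic cells was -1.26 with probe sets averaged. Within GM-TNFa-DC only, the median was -1.48. The difference between both number terms called 20 members with the mean of probe sets (median -1.81), which takes in dim ones. There 224 of all genes were called lower. Otherwise 32 to 37 members were called, beside 245 to 421 of all genes called lower. Leaving out a dendritic cell array leaves no residual degree of freedom there, so no such fit was made. Over all genes, the 819 called in GM-DC minus GM-MPP became 1476 with the replicate block, 4616 with separate number terms and 50 to 161 without single arrays. The 1279 in GM-TNFa-DC minus GM-MPP became 749 with only the 4 arrays compared, 2060 with the block, 5145 with separate terms and 91 to 583 without single arrays. The number difference called 0 genes with the shared term. Without single arrays, Kif15 in GM-DC minus GM-MPP ranged from -0.02 to 0.26, and in GM-TNFa-DC minus GM-DC Bub1 from -1.52 to 1.54, Spc24 from -0.61 to 1.05, Aurkb from -1.66 to 0.23, Ect2 from -1.25 to 1.24 and Kif2c from -1.31 to 1.08, each crossing 0. Bub1, at 0.01, was 0.00 with centred arrays and -0.03 with the mean of probe sets. With 2 arrays a group, the number of arrays limits all of these.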
